A study of Mus musculus with 14 samples.

Results

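The ETS factor genes considered here were Erg, Fli1, Spi1, Etv6, Gabpa, Ets1, Ets2 and Elf1, 8 named genes of the 21887 protein-coding genes of the RefSeq table of GRCm38.p6, and all 8 were found in it. Each gene was taken with 20 kb on either side, and these windows did not overlap each other. ChIP-seq had been run for GATA2, for RUNX1 and for S2P, the serine 2 phosphorylated RNA polymerase II that transcribes through gene bodies, in G1ER cells. G1ER is a mouse erythroblast line with no GATA1 of its own and an added GATA1 fusion that responds to estradiol. The knockout cells (KO) were Chd7-/-, that is, without the chromatin remodelling ATPase CHD7, and the control cells (WT) were wild type for Chd7, so both groups shared the GATA1 background and were grown with EPO and SCF. There was 1 library and 1 peak list per genotype for GATA2 and for RUNX1, and 1 peak list per genotype for S2P, which the labels name for 2 replicates. No replicate spread was therefore available, no difference between genotypes was tested, and every comparison below sets 1 list against 1 list. The labels do not say whether the knockout cells came from 1 clone, and they mention estradiol, for 48 hours, in a differentiation assay without saying if the ChIP cells received it.

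ETS proteins share a DNA-binding domain, the ETS domain, that recognises a short GGAA core, and many of them act in blood formation beside GATA and RUNX factors. In mouse blood stem and progenitor cells ERG and FLI1 bind with GATA2, RUNX1, TAL1, LYL1 and LMO2 at shared enhancers. PU.1, the product of Spi1, drives the myeloid and B cell programmes and antagonises GATA1 in erythroid cells, so the locus is normally turned down as red cells mature.

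The KO and WT lists held 80611 and 68199 GATA2 peaks, 35281 and 28952 RUNX1 peaks, and 165206 and 163620 S2P peaks. The strength of a peak is given as the whole number of ChIP fragments piled up at its summit, with an exact Poisson 95% interval that covers counting error only. The median summit over each whole list had 24 and 23 fragments for GATA2 and 37 and 38 for RUNX1, and summits cannot exceed 282 fragments in KO or 286 in WT. The cell type label was checked on S2P. In both lists 8 of the 9 erythroid marker genes measured lay at least partly under S2P peaks, and Slc4a1 did not. Of all genes of at least 2 kb, 51.7% had S2P in either list. The median share over the 9 was 34.0% of the gene in KO and 22.8% in WT. Among the 8, Gfi1b, Tfrc and Klf1 had most and Trim10 least (5.01% in KO and 13.2% in WT). Of 6 markers each, 1 mast cell gene (Cpa3, 39.8% of the gene in KO and 54.5% in WT), 1 megakaryocyte gene (Itga2b, 33.4% and 30.6%), 1 myeloid gene (Csf1r, 10.9% and 11.6%) and 1 lymphoid gene (Ptprcap, 100% in both) had S2P. The part of such markers in the values below was not tested. Chd7 itself had no S2P in either list, with 1 GATA2 peak in its KO window and 0 in WT, so it gave no check of the genotype.

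GATA2 and RUNX1 were spread very unevenly over the 8 genes. By number, Erg, Etv6 and Elf1 held most of the peaks, and Spi1 held fewer, some of them strong. Gabpa and Ets2 had few GATA2 peaks, of at most 31 fragments, and Fli1 and Ets1 were almost bare. Per 100 kb of window, Spi1 held 12.3 GATA2 and 9.54 RUNX1 peaks in KO, and 8.18 and 6.81 in WT. Etv6 held 9.84 and 4.01 in KO, and 8.38 and 2.19 in WT. GATA2 had a peak in both lists at 6 genes of 8 (Erg, Spi1, Etv6, Gabpa, Ets2 and Elf1), where 68.1% of all gene windows had one. RUNX1 had a peak in both lists at the same 6 genes, where 57.9% of all windows had one. Together the 8 windows held 104 GATA2 peaks in KO and 94 in WT, a ratio of 1.11 (0.829 to 1.48), against 1.18 over the whole lists. They held 50 RUNX1 peaks in KO and 45 in WT, a ratio of 1.11 (0.728 to 1.70), against 1.22 over the whole lists. More GATA2 peaks in KO were found at 5 of the 7 genes with any, and 54.3% of all windows with a peak behaved so. More RUNX1 peaks in KO were found at 3 of 6 genes, against 50.7% of all such windows. The median density over the 8 genes was 8.33 GATA2 peaks per 100 kb of window in KO and 5.79 in WT, against 3.93 in KO and 2.95 in WT over all genes and 7.66 and 6.36 over the 9986 genes with any S2P. For RUNX1 it was 4.56 in KO and 3.65 in WT, against 1.98 in KO and 1.66 in WT over all genes and 5.04 and 4.09 over those with S2P. Of the 8 genes, 6 had S2P. A peak at a window's edge was no issue at these genes, since the outermost one inside lay 13.8 kb from its gene (Elf1, KO GATA2) and the nearest one outside 21.1 kb away (Etv6, KO RUNX1).

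**Figure D1:**
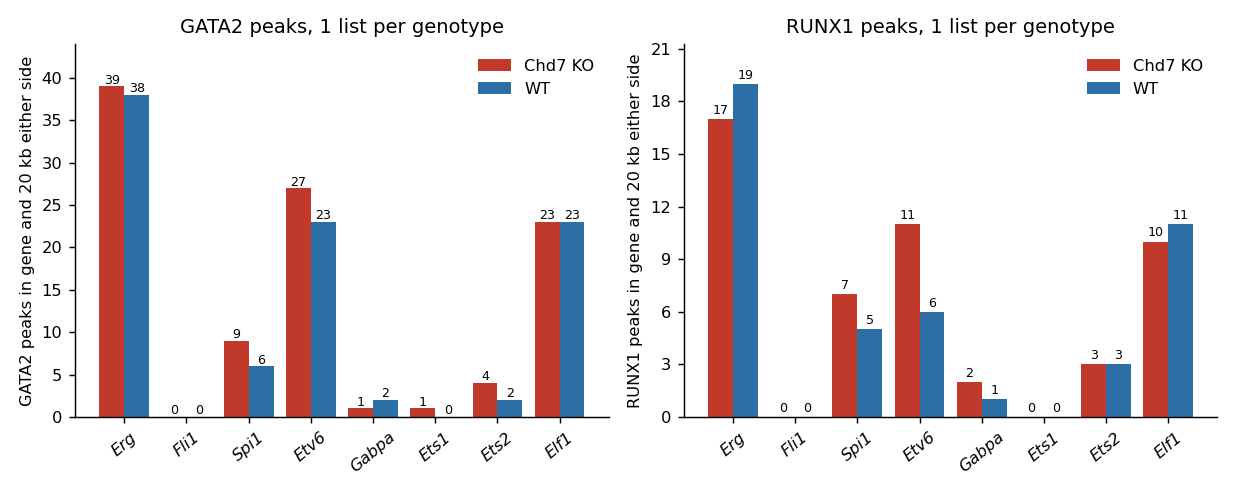
Number of GATA2 peaks (left) and RUNX1 peaks (right) with the summit in each ETS gene or within 20 kb of it, in KO (red) and WT (blue), 1 list each. Erg leads with 39 and 38 GATA2 peaks in KO and WT, and Fli1 has 0 in all 4 lists.

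Erg (chromosome 16, 95359169 to 95586600), which encodes a factor required to maintain blood stem cells, was the gene with the most peaks of both factors. It held 39 GATA2 peaks in KO and 38 in WT, or 14.6 and 14.2 per 100 kb of window, where the median over all protein-coding genes was 3.93 and 2.95. It held 17 RUNX1 peaks in KO and 19 in WT. The strongest peak of both factors in both genotypes was the same site inside the gene (95439029 to 95439625 in the KO GATA2 list). GATA2 had 277 fragments there in KO and 277 in WT, near the ceiling of the measure. RUNX1 had 239 (210 to 271) in KO and 194 (168 to 223) in WT, intervals that overlap. A second pair of summits lay 0.67 kb away, with 276 and 263 GATA2 fragments and 182 and 152 RUNX1 fragments in KO and WT. The third strong site (95487597 to 95489088, KO GATA2) had 268 and 259 GATA2 fragments and 173 and 144 RUNX1 fragments. All of these lie within the gene, and exons and introns could not be separated because the gene table holds neither. All 17 KO RUNX1 peaks of Erg and 14 of 19 in WT were overlapped by a GATA2 peak of the same genotype.

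Before KO was set against WT, fragments at a summit were scaled by the smallest local background found in the same list, and only peaks that overlapped 1 to 1 were used. Of 32 such GATA2 pairs at Erg, 8 were over 1.5-fold higher in KO, where 13.8% of all GATA2 pairs were, and 0 were over 1.5-fold lower, where 6.59% were. The lowest 3 pairs lay just inside that limit, with a log2 KO over WT of -0.55 to -0.54. The 5 pairs with over 150 fragments in KO had a log2 of -0.18 to -0.02, and 3 of them lay near the ceiling, where differences are understated. The highest ratio was at 95435056 to 95435322, with 45 fragments (32.8 to 60.2) in KO and 21 (13.0 to 32.1) in WT, a log2 of 1.01. The next was at 95520656 to 95520881, with 50 (37.1 to 65.9) in KO and 26 (17.0 to 38.1) in WT, a log2 of 0.86. One RUNX1 site of Erg went the other way, with 36 fragments (25.2 to 49.8) in KO and 59 (44.9 to 76.1) in WT, a log2 of -0.74 (95405561 to 95405829). GATA2 at that place had 41 and 42 fragments. The strongest GATA2 peak called in KO alone lay 11.8 kb below the gene's lower end and had 61 fragments (46.7 to 78.4). The strongest called in WT alone had 28 (18.6 to 40.5).

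Fli1 (chromosome 9, 32422204 to 32543432), whose product is the closest relative of ERG and drives megakaryocyte genes, stood at the other extreme. No GATA2 or RUNX1 peak was listed in its window in either genotype, a state shared by 21.3% of all gene windows. The nearest GATA2 summit lay 163 kb from the gene in KO and 345 kb in WT, and the nearest RUNX1 summit 1010 kb away in both. Ets1 (chromosome 9, 32636241 to 32757820), known for its role in lymphocytes, is its neighbour on the chromosome. It held 1 GATA2 peak in KO, with only 10 fragments (4.80 to 18.4), and 0 in WT, and no RUNX1 peak in either. A list with no peak says that none passed its q limit of 0.05, not that the factor was absent.

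Etv6 (chromosome 6, 134035700 to 134270158) encodes a repressor needed by adult blood stem cells, known in human leukaemia as a fusion partner of RUNX1. It held 27 GATA2 peaks in KO and 23 in WT. It held 11 RUNX1 peaks in KO and 6 in WT, and all 6 WT peaks were also found in KO. The 5 RUNX1 peaks called in KO alone were weak, with 20 fragments (12.2 to 30.9) at the strongest. The strongest site of both factors lay 151 kb inside the gene (134186255 to 134186585, KO GATA2). GATA2 had 136 fragments there in KO and 136 in WT, and RUNX1 had 149 (126 to 175) in KO and 123 (102 to 147) in WT.

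One site of Etv6 was higher in KO for both factors. It lay 47.0 kb from the listed start (134082401 to 134082885, KO GATA2). GATA2 had 85 fragments (67.9 to 105) in KO and 42 (30.3 to 56.8) in WT, a log2 KO over WT of 0.93. RUNX1 had 53 in KO and 20 in WT, a log2 of 1.38, the highest ratio of any RUNX1 pair at the 8 genes. The RUNX1 peak just past the start (134035729 to 134036192) came next among these genes, with 37 fragments (26.1 to 51.0) in KO and 16 (9.15 to 26.0) in WT and a log2 of 1.19. In a bulk sample, more cells with the factor bound and more binding per cell cannot be told apart.

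Spi1 (chromosome 2, 91082374 to 91115759) held 9 GATA2 peaks in KO and 6 in WT, and 7 RUNX1 peaks in KO and 5 in WT. Every WT peak of either factor in its window was also found in KO. A single strong GATA2 site dominated (91096533 to 91097065, KO), with 259 fragments (228 to 293) in KO and 228 (199 to 260) in WT. The other GATA2 peaks had 22 to 64 fragments in KO and 20 to 37 in WT. RUNX1 was also present at that site, with 87 fragments in KO and 51 in WT, a log2 KO over WT of 0.75.

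The strongest RUNX1 site of Spi1 was elsewhere, 0.68 kb inside the lower-coordinate end of the gene (91082918 to 91083273, KO) and without GATA2. It had 123 fragments (102 to 147) in KO and 91 (73.3 to 112) in WT. In mice Spi1 is known to be controlled by an upstream element that binds RUNX1. The strand and start of Spi1 were not among the reference entries used, so these sites were not placed relative to the promoter. At the upper end of the gene RUNX1 had a peak in KO alone (91115145 to 91115362) with 68 fragments (52.8 to 86.2). This was the strongest peak called in only 1 genotype among all those of the 8 genes, for either factor. The window also reaches Slc39a13 and Mybpc3, and 1 RUNX1 site, with 82 fragments in KO and 59 in WT, lay 12.0 kb below Spi1 at the end of Slc39a13.

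**Figure D2:**
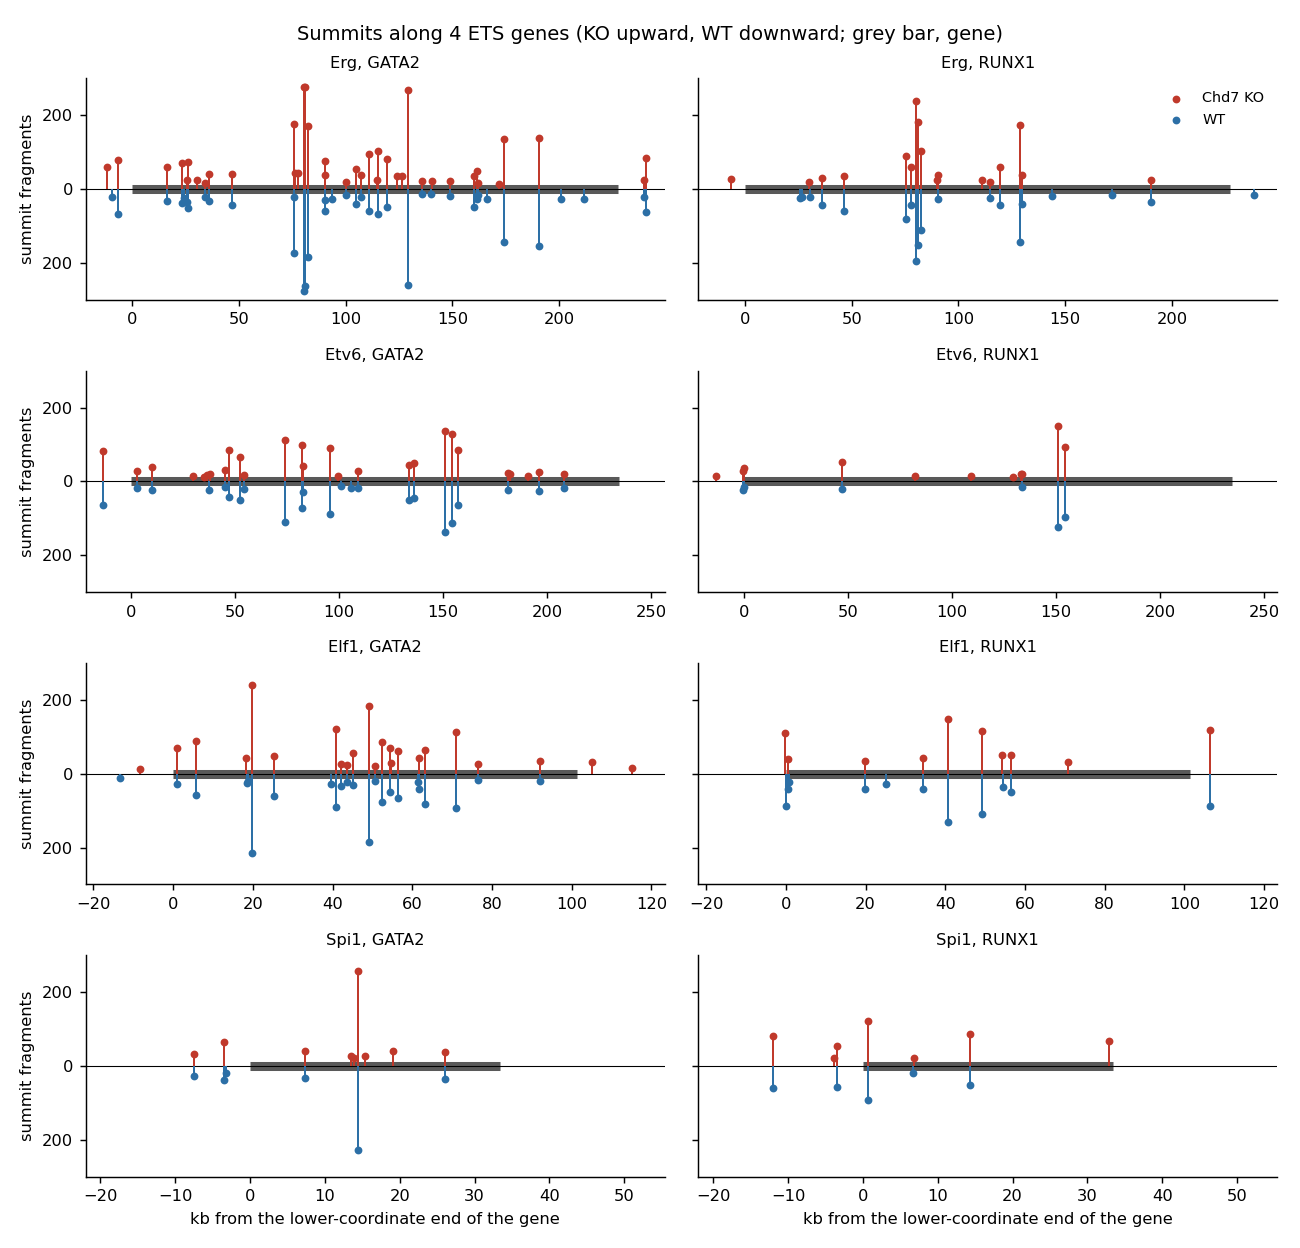
Summits of GATA2 (left) and RUNX1 (right) along Erg, Etv6, Elf1 and Spi1, as kb from the lower-coordinate end of the gene (x) and fragments at the summit (y), with KO drawn upward in red and WT downward in blue and the gene as a grey bar. The tallest summits mirror each other at every gene, and the RUNX1 summit of 68 fragments at the right end of Spi1 has no WT partner.

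Elf1 (chromosome 14, 79481174 to 79582491), a broadly active factor of the blood lineages, had the highest density of GATA2 peaks, with 23 in each list or 16.3 per 100 kb. The strongest (79500609 to 79501195, KO) had 241 fragments (212 to 273) in KO and 214 (186 to 245) in WT. It held 10 RUNX1 peaks in KO and 11 in WT, and the strongest lay at another GATA2 site (79521766 to 79522160, KO), with 148 fragments (125 to 174) in KO and 131 (110 to 155) in WT. At both sites the intervals of KO and WT overlapped. The GATA2 summit 0.82 kb past the first listed start (79481772 to 79482137) differed most of all GATA2 pairs at the 8 genes. It had 69 fragments (53.7 to 87.3) in KO and 28 (18.6 to 40.5) in WT, a log2 KO over WT of 1.22. A RUNX1 peak of 118 fragments in KO and 88 in WT (79587097 to 79587852, KO), beyond the other end of Elf1, lies beside the neighbouring gene Sugt1, which begins at 79587660.

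Gabpa (chromosome 16, 84834891 to 84863783) encodes the DNA-binding subunit of GABP, which acts at the promoters of many mitochondrial and housekeeping genes. GATA2 was nearly absent from its window, with 1 peak of 25 fragments in KO and 2 peaks of 23 and 9 in WT, all outside the gene. RUNX1 lay at the start of the gene, with 54 fragments (40.6 to 70.5) in KO and 43 (31.1 to 57.9) in WT (84834803 to 84835065, KO), and without GATA2. That start lies within the span of the neighbouring gene Atp5j, so the site belongs to both. Ets2 (chromosome 16, 95702407 to 95721049), a target of RAS and MAP kinase signalling, held 4 GATA2 peaks in KO and 2 in WT, of 16 to 31 fragments. It held 3 RUNX1 peaks in each genotype, of which 2 lay at its start, and all 3 were shared.

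The promoter table lists 8 starts for 5 of the 8 members (Erg, Etv6, Gabpa, Ets2 and Elf1). A RUNX1 summit lay within 1 kb of 5 of these starts in KO and 6 in WT, against 31.2% and 28.2% of all listed starts. The start with RUNX1 in WT alone was 1 of the 3 listed for Erg, and it had 15 fragments. A GATA2 summit lay within 1 kb of 3 of the 8 starts in KO and 2 in WT, against 14.3% and 12.4% of all starts.

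The 4 promoters below are shown because peaks of a factor cover more than 50% of them in both lists, as the 250 bases before the listed start, from RefSeq on GRCm38.p6, 5′ to 3′ on the strand of the gene. Capitals mark matches on either strand to 1 of 3 motifs, and no matches overlapped. The RUNX core was searched as TGTGGT. The GATA site was searched as AGATAA. The ETS site was searched as CCGGAA, which is longer than the GGAA core, so other GGAA letters, as in Gabpa, are left unmarked. At Gabpa (chr16:84834874-84835123, plus strand) a RUNX1 peak covers 192 of the bases in KO and 232 in WT. At Elf1 (chr14:79480944-79481193, plus strand) RUNX1 covers 250 bases in KO and 237 in WT, and the neighbouring gene Wbp4 spans the same bases, so the site belongs to both. At Ets2 (chr16:95702157-95702406, plus strand) RUNX1 covers 250 bases in KO and 147 in WT. At Erg, for the listed start inside the gene (chr16:95459349-95459598, minus strand), a weak GATA2 peak of 18 fragments in KO and 16 in WT covers 250 and 192 bases.
Gabpa: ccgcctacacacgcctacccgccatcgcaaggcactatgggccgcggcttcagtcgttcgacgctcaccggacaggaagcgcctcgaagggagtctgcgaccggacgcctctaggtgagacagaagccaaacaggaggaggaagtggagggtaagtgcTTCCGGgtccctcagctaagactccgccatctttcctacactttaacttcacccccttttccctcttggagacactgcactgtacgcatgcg
Elf1: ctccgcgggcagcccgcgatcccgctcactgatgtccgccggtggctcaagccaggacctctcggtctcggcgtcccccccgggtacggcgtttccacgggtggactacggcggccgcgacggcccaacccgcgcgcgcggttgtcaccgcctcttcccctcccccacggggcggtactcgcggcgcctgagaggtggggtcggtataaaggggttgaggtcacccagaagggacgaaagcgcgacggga
Ets2: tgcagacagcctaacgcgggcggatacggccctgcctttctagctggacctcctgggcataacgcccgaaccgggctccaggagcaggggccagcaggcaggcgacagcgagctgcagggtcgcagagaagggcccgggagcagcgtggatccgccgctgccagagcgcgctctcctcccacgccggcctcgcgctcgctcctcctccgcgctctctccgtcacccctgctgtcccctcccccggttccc
Erg: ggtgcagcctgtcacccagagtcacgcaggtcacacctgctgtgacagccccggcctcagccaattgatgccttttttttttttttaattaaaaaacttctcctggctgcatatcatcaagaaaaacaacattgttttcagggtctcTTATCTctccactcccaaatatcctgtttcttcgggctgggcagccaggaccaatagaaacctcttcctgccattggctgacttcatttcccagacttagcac
The capitals in Gabpa are an ETS match on the opposite strand, 92 bases before the start and under the RUNX1 peak of both lists. Those in Erg are a GATA match on the opposite strand, 103 bases before the start and under the GATA2 peak of both lists. RUNX1 peaks also reached 121 bases in KO and 115 in WT of the promoter at the second Elf1 start, and 97 in KO and 0 in WT of that of Etv6. None of the 8 promoters of these members held TGTGGT, including the 3 printed ones covered by RUNX1, which says only that these letters are not in the windows. Over all 32851 listed promoters of this length, 14.0% held the RUNX letters, 9.99% the GATA letters and 12.0% the ETS letters.

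Most peaks at the ETS genes were found in both genotypes. Of the KO GATA2 peaks 80 of 104 were shared with WT (76.9%, 67.6 to 84.6 by the exact Clopper-Pearson method), against 68.8% of the whole list. Of the WT GATA2 peaks 82 of 94 were shared with KO (87.2%, 78.8 to 93.2), against 81.5%. For RUNX1, 38 of 50 KO peaks were shared (76.0%, 61.8 to 86.9), against 69.6%, and 39 of 45 WT peaks (86.7%, 73.2 to 94.9), against 86.6%. All 4 shares lay within counting error of the whole list. Whether peaks found in only 1 genotype lay just under the q limit of the other list was not tested. The 24 GATA2 peaks called in KO alone had a median of 23 fragments (10 to 61), and the 12 called in WT alone 22.5 (9 to 29). These were near the medians of the whole KO and WT lists, 24 and 23. The 12 RUNX1 peaks called in KO alone had a median of 20.5 (13 to 68), and the 6 in WT alone 20 (15 to 29). These were below the whole-list medians of 37 and 38.

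Shared GATA2 summits leaned towards KO as in the rest of the genome, with a median log2 KO over WT of 0.11 over 78 pairs, against 0.11 over all 53508 pairs. Of the 78, 14 (17.9%) were over 1.5-fold higher in KO, where 13.8% of all pairs were, and 0 were over 1.5-fold lower, where 6.59% were. The 14 lay in Erg (8), Etv6 (3) and Elf1 (3). For RUNX1 the median was 0.21 over 37 pairs, against 0.19 over all 23560, and 3 pairs (8.11%) were over 1.5-fold higher, against 14.8%. A single RUNX1 pair (2.70%) was over 1.5-fold lower, against 4.58%. By gene, the RUNX1 median was highest at Spi1 (0.41, 5 pairs) and lowest at Erg (0.02, 14 pairs). These ratios compare single libraries. The intervals of KO and WT fragments, before scaling, overlapped at 71 of the 78 GATA2 pairs and 34 of the 37 RUNX1 pairs. The share over all pairs was not computed, so these counts cannot be set against the whole lists. Before scaling, the 7 GATA2 pairs without overlap were higher in KO and lay in Erg (5), Etv6 (1) and Elf1 (1). The 3 RUNX1 pairs were higher in KO and lay in Etv6 (2) and Spi1 (1). Scaling lowers KO slightly against WT, with a log2 of -0.09 for GATA2 pairs of equal fragments. Some of the gaps were narrower than that, as at 95435056 to 95435322 in Erg (32.8 in KO against 32.1 in WT). Overlap after scaling was not counted.

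**Figure D3:**
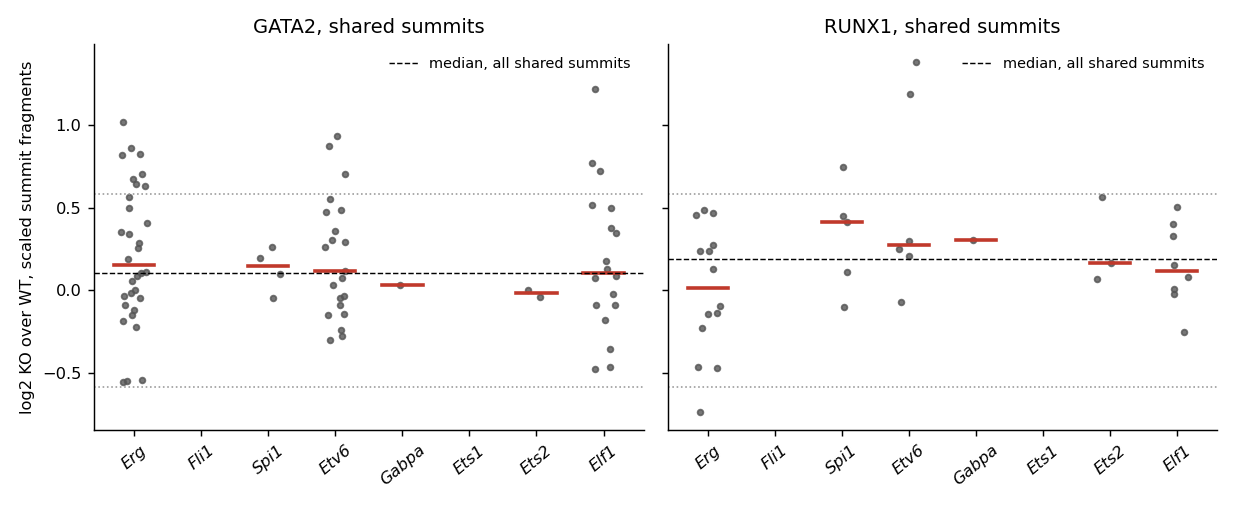
Log2 KO over WT of scaled summit fragments for each shared GATA2 (left) and RUNX1 (right) summit at the ETS genes (points), with the median per gene (red bars), the median over all shared summits (dashed line) and 1.5-fold either way (dotted lines). GATA2 has 14 points above the upper dotted line and 0 below the lower one.

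Most RUNX1 peaks at these genes were overlapped by GATA2, as they were over the whole lists. GATA2 overlapped 34 of 50 RUNX1 peaks in KO (68.0%, 53.3 to 80.5), against 52.4% of all KO RUNX1 peaks, and 28 of 45 in WT (62.2%, 46.5 to 76.2), against 53.9%. Much of this came from Erg, and without Erg the shares were 51.5% in KO and 53.8% in WT. At Erg, Etv6 and Ets2 the strongest GATA2 and RUNX1 peaks overlapped in both genotypes, while at Spi1, Gabpa and Elf1 they lay at separate sites. In KO 7 of 11 RUNX1 peaks of Etv6, 7 of 10 of Elf1, 2 of 7 of Spi1, 1 of 3 of Ets2 and 0 of 2 of Gabpa were overlapped by GATA2.

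S2P gave another order of the genes than the factors did. The share of the gene under S2P peaks was highest at Ets2, with 58.8% in KO and 62.9% in WT, followed by Gabpa, with 42.1% in KO and 34.2% in WT. Elf1 had 19.4% in KO and 18.3% in WT, and Etv6 had 18.3% in KO and 19.8% in WT. Spi1 had 12.4% in KO and 8.75% in WT. Erg, with the most GATA2 peaks, had 1.56% in KO and 1.63% in WT, in 15 and 14 short S2P peaks of at most 456 and 632 bp. Fli1 and Ets1 had 0 in both lists, and the nearest S2P peak lay 485 kb from Fli1 and 699 kb from Ets1 in each. Elf1 and Etv6 are neighbours in this order that change places between the lists, and without replicates their order was not tested. Over all 19304 genes of at least 2 kb the median was 0.160% in KO and 0.0532% in WT, and 51.7% had any S2P.

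**Figure D4:**
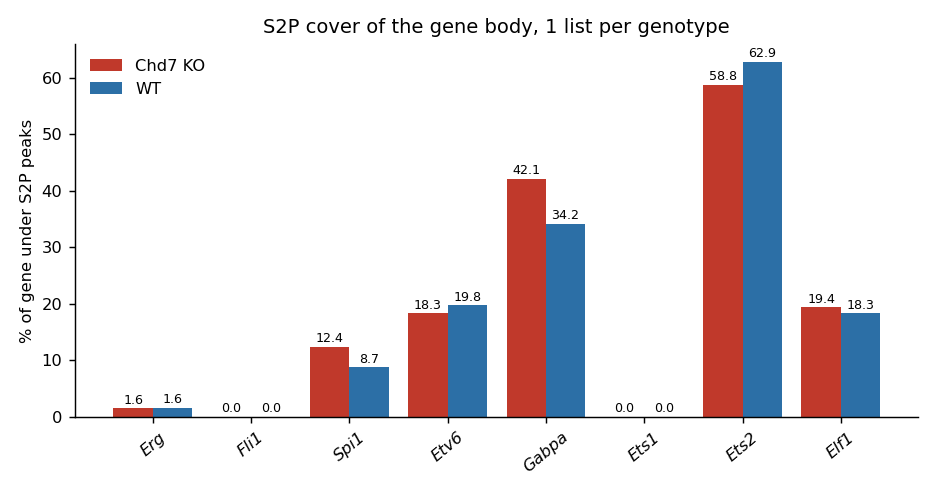
Percent of each ETS gene, from its lower to its upper end, under S2P peaks in KO (red) and WT (blue), 1 list each. Ets2 and Gabpa stand highest, Erg has under 2%, and Fli1 and Ets1 have 0.

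The pairing of dense GATA2 and little S2P at Erg was not particular to it. Among the 356 genes of at least 2 kb with at least 20 GATA2 peaks in both lists, 38.2% had S2P over less than 5% of their length in both. Only 51.7% of all genes of at least 2 kb had any S2P, so little S2P was less frequent among the 356 than over all genes. S2P over more than 50% of the gene in both lists, as at Ets2, was found for 15.8% of genes.

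Between genotypes, S2P was higher in KO at 3 of the 6 covered members (Gabpa, Spi1 and Elf1) and lower at 3 (Ets2, Etv6 and Erg), where 61% of all covered genes were higher in KO. The difference passed 5 percentage points at Gabpa alone, by 7.95 points, and 19.1% of all covered genes were that much higher in KO and 9.56% that much lower. With S2P peaks of −log10 q of at least 5 alone, the difference at Spi1 was 5.60 points, past that mark as well. At Ets2 the share differed by -4.10 points and at Spi1 by 3.64 points, KO minus WT. The KO S2P list covers more of the genome, 123 Mb, against 115 Mb for the WT list. With the KO list limited to the strongest peaks that cover the length of the WT list, the difference was 4.26 points at Gabpa, 2.69 at Spi1 and -6.39 at Ets2. That limit drops the weaker KO peaks and keeps all WT peaks, so the q limits of the lists then differ. Under it Etv6 moved to -6.87 points, with 12.9% in KO and 19.8% in WT, and Elf1 turned to -0.94. With −log10 q of at least 5 in both lists, the difference was 0.60 points at Etv6 and -0.18 at Elf1.

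Each gene was divided into 4 equal parts, part 1 being the one at the listed start. In all 5 genes with a listed start (Ets2, Elf1, Gabpa, Etv6 and Erg) the share under S2P was higher in part 4 than in part 1. This held in both lists. How many of all covered genes behave so was not computed, so it cannot be called particular to these genes. In Ets2 the share was 28.4% in KO and 39.0% in WT in part 1, and 100% in both in part 4. In Elf1 it was 0% in KO and 1.41% in WT in part 1, and 41.0% in KO and 34.3% in WT in part 4. In Gabpa part 4 held the larger difference, with 55.8% in KO and 38.6% in WT, and part 1 held 25.3% in KO and 18.3% in WT. Part 1 of Gabpa overlaps the mitochondrial ATP synthase gene Atp5j by 967 bp, and the ChIP carries no strand, so S2P of the 2 genes cannot be told apart there. Etv6 differed less between its ends, with 19.8% in KO and 23.2% in WT in part 1 and 25.8% in KO and 23.8% in WT in part 4, and parts 2 and 3 held less than either end in both lists. In Erg part 1 held 0% in both lists and part 4 held 2.66% in KO and 3.45% in WT. The span of Etv6 also holds several lncRNA genes.

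In Spi1 no S2P was found in parts 1 and 2 of the gene, counted from its lower-coordinate end, in either list. In the uppermost of its 4 parts it covered 34.9% in KO and 23.6% in WT. The strongest S2P peak that touched this part lay almost wholly beyond the gene (91115717 to 91116683 in KO, 91115757 to 91116672 in WT). Its deposited fold enrichment was 9.40 in KO and 5.56 in WT. Among S2P peaks wholly inside the uppermost part, the highest was 3.32 in KO and 3.57 in WT. The KO-only RUNX1 peak of Spi1 also lay in the uppermost part (summit 32.9 kb from the lower end). Whether it is related to the S2P there was not tested.

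**Figure D5:**
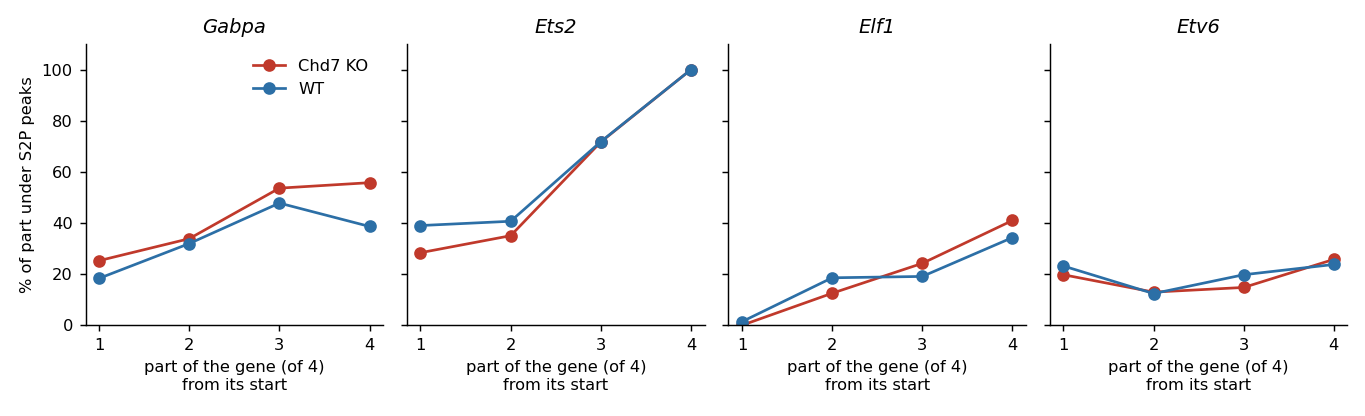
Percent under S2P peaks in 4 equal parts of Gabpa, Ets2, Elf1 and Etv6, part 1 being at the listed start, in KO (red) and WT (blue). Ets2 reaches 100% in part 4 in both, and Gabpa shows 55.8% in KO and 38.6% in WT there.

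The windows of the other 18 genes of the ETS family held 1 to 15 GATA2 peaks and 0 to 10 RUNX1 peaks in KO, and 0 to 15 and 0 to 11 in WT. GATA2 was in both lists at 14 of them, where 68.1% of all windows had it, and RUNX1 at 12, where 57.9% had it. S2P was present at 11 of 18 in both lists and at 7 in neither (Fev, Elf3, Spic, Etv1, Spdef, Ehf and Etv2), with a median share of 4.69% in KO and 5.26% in WT. It was higher in KO at 3, lower at 7 and equal at Spib, where 61% of all covered genes were higher in KO. Elk4, a partner of serum response factor, led with 64.3% in KO and 69.2% in WT, followed by Elf2, a relative of Elf1, with 61.1% in KO and 64.9% in WT. The difference passed 5 points at Etv3, with 41.4% in KO and 32.7% in WT, and at Erf, a repressor gene, with 38.0% in KO and 53.9% in WT. Gabpb1, which encodes a partner subunit of GABPA, had 46.2% in KO and 38.3% in WT, and Gabpb2 83.5% in KO and 86.4% in WT.

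The genes of the partner factors carried far more S2P than Erg or Fli1. Tal1 had 99.0% in KO and 98.7% in WT, Lyl1 100% in both, Gata2 93.6% in KO and 99.3% in WT, Runx1 89.0% in KO and 80.6% in WT, and Lmo2 30.5% in KO and 30.3% in WT. All 5 had GATA2 and RUNX1 peaks in both lists. Over 6 values, the peak numbers of the 4 factor lists and the 2 S2P shares, the gene most like Erg was Baz2b, at a distance of 0.28 in standard deviations, with 42 and 35 GATA2 peaks and 20 and 17 RUNX1 peaks in KO and WT. Spi1 was closest to Eif2ak1 (0.10), Etv6 to Usp6nl (0.33), Gabpa to Aoc3 (0.29), Ets2 to Hpf1 (0.24) and Elf1 to Dennd6a (0.27). Fli1 shared its pattern of no peak with 4569 genes, and Ets1 shared its own with 662.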

How the data were processed

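ChIP-seq libraries of GATA2, RUNX1 and S2P and their inputs (14 samples, 6 of them inputs) were grouped by genotype and antibody from the labels. Bowtie2 2.2.1, MACS2 2.1.0 and the build GRCm38 (mm10) are named, without roles or settings, per the submitters' processing notes. The authors deposited 6 narrowPeak lists without a header. The deposited score equals the deposited −log10 q multiplied by 10 and truncated, the deposited fold enrichment is a ratio of summit pileup to local background, and the deposited −log10 p and −log10 q belong to each peak. The deposited column 10 holds the summit offset in bp. The members and lists were chosen with earlier results of these data known.

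Fold enrichment and −log10 p, as deposited, together fix the whole fragments at a summit and its local background under a Poisson model, and 100% of summits in the 4 factor lists matched within 0.005. The recovery and the overlap step were tested on simulated data. For KO over WT, fragments were scaled by the smallest local background in the same list (1.57 and 1.48 for GATA2, 1.39 and 1.37 for RUNX1, in KO and WT). Peaks belong to a gene when the summit is in it or within 20 kb, and are shared when they overlap by at least 1 bp. Sites were named by rule as the strongest peak of each list, the strongest in 1 genotype alone and those within 1 kb of a listed start, and other sites were added after their values were seen, for a ratio past 1.5-fold or a high summit. The highest factor summits, 282 fragments in KO and 286 in WT, equal 2 times the smallest peak width of their lists (141 and 143 bp). Such a ceiling goes with counting 1 fragment per position and strand, where PCR copies at 1 position count once. No molecular identifiers are described, and the intervals do not cover any other copies. Python 3.11.15, scipy 1.17.1 and pandas 2.3.3 were used. Alternatives were the window, the q limit, the overlap rule, the scaling and leaving out Erg. Another kept an equal number of the strongest factor peaks per genotype, well below the length of the shorter list. For S2P the KO list was cut to the covered length of the WT list. Inputs had no file and were not analysed here.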

Additional observations from a re-analysis of the deposited data

How the results depend on the processing

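Of 57 values recomputed under alternative settings, 55 stayed within the counting interval of the value reported, or within 1.5 times for the count of genes. The share of KO RUNX1 peaks shared with WT moved to 89.5% (17 of 19 peaks) under a cut to the strongest peaks. That cut kept the same number per genotype, well below the length of the shorter list, so it did more than match list sizes. It left 19 RUNX1 peaks in KO and 21 in WT at these genes, from 50 and 45. The cause of the move was not tested. The share of KO RUNX1 peaks overlapped by GATA2 moved to 51.5% without Erg. The ratio of GATA2 peaks ranged from 1.09 to 1.16, and that of RUNX1 from 0.905, under the same cut to the strongest peaks, to 1.27, without Erg. Median log2 KO over WT ranged from 0.09 to 0.20 for GATA2 and 0.15 to 0.25 for RUNX1. S2P was higher in KO at 2 or 3 genes of 8. At a −log10 q of at least 5, the S2P differences of Etv6, Elf1 and Spi1 were 0.60, -0.18 and 5.60 points, against -1.46, 1.09 and 3.64 with all peaks, and the cause was not tested. No paired analysis was possible because each target had 1 list per genotype, and no replicate could be left out. Summits near the ceiling understate differences, and weak peaks near the q limit may be missed in 1 list alone.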
